A study of Mus musculus with 22 samples.

Results

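Cyp7a1 and Cyp8b1 encode the cytochrome P450 enzymes that decide how much bile acid a liver makes from cholesterol and of which kind. Both genes were taken by their symbol in the platform annotation, each stood on 1 row, and they are 2 of 24011 genes measured. Their levels were followed in liver RNA from 22 female C57BL/6J mice aged 12 weeks, with 1 Affymetrix MoGene 2.0 ST array per mouse. Of the 11 wild-type mice, 5 ate plain chow (group WT_chow) and 6 ate chow with ursodeoxycholic acid (WT_UDCA), and of the 11 mice lacking Cyp2c70, 5 ate plain chow (KO_chow) and 6 the acid (KO_UDCA). Ursodeoxycholic acid (UDCA), a hydrophilic bile acid, was given at 0.1% of the chow for 7 weeks from the age of 5 weeks. The labels name the knockout as KO-CYP2C70. The sources used here do not give how the line was made or whether the wild-type mice were littermates.

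Cyp7a1, cholesterol 7-alpha-hydroxylase, carries out the first and rate-limiting step of the classic pathway of bile acid synthesis in the hepatocyte. Cyp8b1, sterol 12-alpha-hydroxylase, acts further down the same pathway and directs its intermediates towards cholic acid. Without that step the pathway yields chenodeoxycholic acid, which the mouse enzyme Cyp2c70 converts towards muricholic acids. Transcription of both genes is known to be lowered when bile acids activate the nuclear receptor FXR, through the repressor SHP in the liver and through the intestinal hormone FGF15, which acts on hepatocytes by way of the receptor FGFR4 and its partner beta-klotho. Inflammatory cytokines are known to lower both transcripts as well.

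The proximal promoter of Cyp8b1 is shown because the control of the gene is usually described at sites close to the start. The RefSeq promoter table of build GRCm38.p6 matched 1 of the 2 genes, Cyp8b1. The 250 bases before the start of Cyp8b1 lie on the minus strand at chr9:121916306-121916555 and are printed 5′ to 3′, with capitals marking the letters of an HNF4A motif and of a TATA box.
Cyp8b1: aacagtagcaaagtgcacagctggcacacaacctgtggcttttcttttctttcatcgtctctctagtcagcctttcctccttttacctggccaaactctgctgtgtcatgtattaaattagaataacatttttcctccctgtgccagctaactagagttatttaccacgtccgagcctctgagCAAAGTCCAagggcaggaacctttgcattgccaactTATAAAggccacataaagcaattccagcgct
The HNF4A letters CAAAGTCCA stand at -67 to -59 from the start, on the strand of the gene. Across 32851 promoters of the same length, searched on both strands, 0.384% held these letters, and 0 of the 9 promoters matched among the other enzymes of bile acid synthesis did. The TATA box letters TATAAA stand at -31 to -26, and 12.4% of the promoters held them. The letters CAAGGNCA, a motif of LRH-1 (Nr5a2), stand at -60 to -53, overlap the HNF4A letters and were found in 5.53% of promoters. The other motifs searched in this window gave no match, namely the nuclear receptor half-site AGGTCA (14% of promoters), the HNF4A variant CAAAGGTCA (0.426%), the FOXA letters TGTTTNC (17.8%), the HNF1 half-site GTTAAT (6.43%), the D-box letters TTATGTAA (0.819%) and TTATGCAA (0.694%) and the E-box CACGTG (6.02%). These matches describe letters only, since the arrays measured RNA and no binding.

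The targeted gene and the tissue were checked first. Cyp2c70 measured between 11.22 and 11.62 log2 units in the wild-type mice and between 10.27 and 10.83 in the knockout mice, so no knockout mouse reached the level of a wild-type mouse. Its level was 1.78-fold lower in KO_chow than in WT_chow (limma adjusted p = 3.2e-06) and 1.9-fold lower in KO_UDCA than in WT_UDCA (limma adjusted p = 7.96e-06). A strong signal remained in both knockout groups, with a group mean above that of 99.2% of genes in KO_chow and 99% in KO_UDCA. Of 13 hepatocyte markers 12 were measured, with a summed intensity between 47338 and 52477 in all 22 mice. This sum weighs the brightest markers most and does not measure the share of hepatocytes. The KO_chow mice lay apart from one another on the first principal component, which held 26.7% of the variance: replicates 2 and 5 stood at 53.4 and 51.9, replicate 3 at 32.5 and replicates 1 and 4 at 18.6 and 15.7. Sample titles are numbered from 1 to 22 without a break, and the order of the groups starts over at title 16. For this reason titles 1 to 15 were taken here as a first run and titles 16 to 22 as a second run. KO_chow replicate 5 and KO_UDCA replicate 6 are the only mice of their groups in the second run. The labels do not say what this numbering stands for. All p-values rest on the spread between mice, and in whole liver fewer hepatocytes and less RNA per hepatocyte cannot be told apart.

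Cyp7a1 was high in every wild-type mouse on chow. The 5 WT_chow mice measured 10.26, 10.8, 10.69, 11 and 10.46 log2 units of RMA intensity, a scale on which 1 unit is a doubling. The 6 WT_UDCA mice ran from 9.72 to 10.79 with a median of 10.5. In the KO_chow mice the levels were 8.52, 8.99, 9.43, 9.67 and 6.2, in the order of replicates 1 to 5. All 5 KO_chow mice lay below every WT_chow mouse, and replicate 5 lay far below the other 4. The 6 KO_UDCA mice ran from 9.46 to 10.56 with a median of 9.96, and 4 of them lay above every KO_chow mouse. The mean of the WT_chow mice was 10.64 ± 0.29 (SD, n = 5), that of the WT_UDCA mice 10.41 ± 0.36 (n = 6), that of the KO_chow mice 8.56 ± 1.39 (n = 5) and that of the KO_UDCA mice 10.01 ± 0.48 (n = 6).

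Cyp8b1 followed the same order of groups with less spread among the KO_chow mice. The 5 WT_chow mice measured 9.61, 9.39, 9.85, 9.76 and 9.69 log2 units. The 6 WT_UDCA mice ran from 9.02 to 9.83 with a median of 9.6, within which most WT_chow mice also fell. The KO_chow mice measured 7.19, 6.18, 7.22, 7.83 and 5.81 in the order of replicates 1 to 5, so that replicates 2 and 5 were the lowest and replicate 4 the highest. The 6 KO_UDCA mice ran from 8.04 to 9.09 with a median of 8.79, above every KO_chow mouse and below every WT_chow mouse. Group means were 9.66 ± 0.17 (SD, n = 5), 9.51 ± 0.3 (n = 6), 6.84 ± 0.83 (n = 5) and 8.7 ± 0.37 (n = 6) in the same order of groups as for Cyp7a1.

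**Figure D1:**
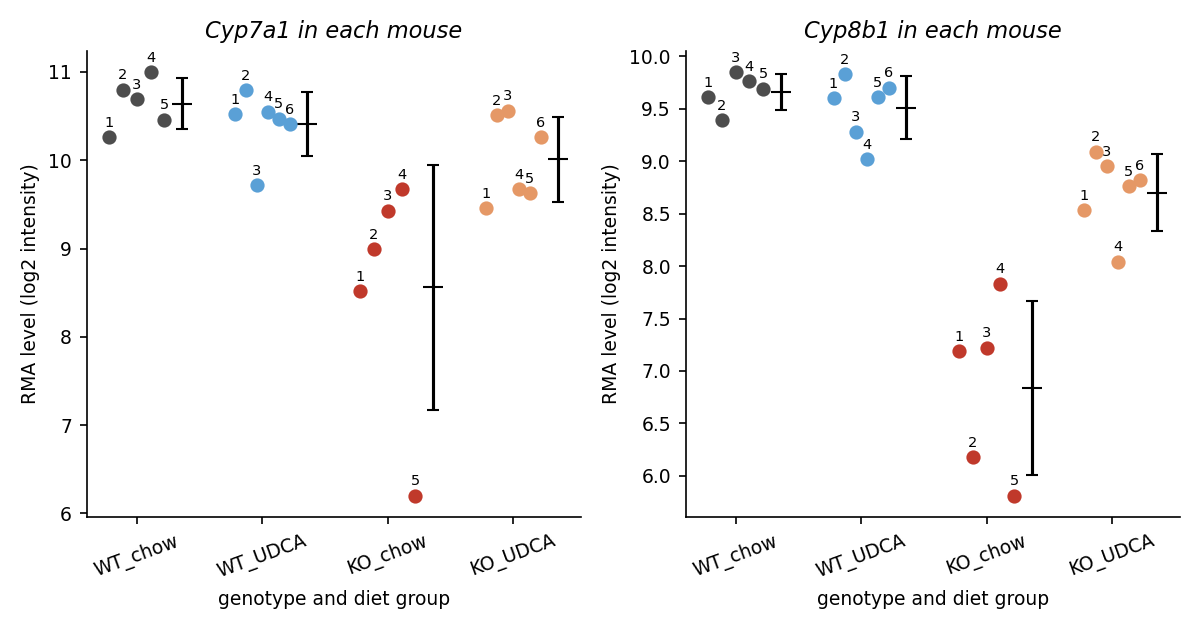
RMA level (log2 intensity) of Cyp7a1 (left) and Cyp8b1 (right) in each of the 22 mice, by group. Each point is a mouse with its replicate number, and the bar beside each group gives the mean ± SD. KO_chow is the lowest and most spread group in both panels, with replicate 5 at 6.2 for Cyp7a1 and at 5.81 for Cyp8b1.

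For both genes the order of the group means was WT_chow, WT_UDCA, KO_UDCA and KO_chow, from high to low. By the limma adjusted p of neighbours in this order, only KO_UDCA and KO_chow passed. A difference of WT_chow and WT_UDCA beyond their spread was not detectable in either gene. In Cyp8b1, WT_UDCA and KO_UDCA did not pass after adjustment over all genes (limma adjusted p = 0.694), although the exact test of this single gene separated them (exact permutation p = 0.00433). The 2 genes were also among the most variable of the array within KO_chow, where the SD of Cyp7a1 exceeded that of 99.9% of genes and the SD of Cyp8b1 that of 99.3%. In WT_chow the corresponding shares were 86.1% and 52.8%. The lowest mouse, KO_chow replicate 5, had linear intensities of 73.8 for Cyp7a1 and 56.2 for Cyp8b1, against array medians between 28.7 and 31.1.

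Loss of Cyp2c70 on chow went with lower levels of both genes. Cyp7a1 fell by 2.08 on the log2 scale (SE 0.42), which is 4.23-fold, with a limma adjusted p of 0.00155. Cyp8b1 fell by 2.82 (SE 0.27), or 7.04-fold, with a limma adjusted p of 2.71e-07. For either gene all 5 KO_chow mice lay below all 5 WT_chow mice, and the two-sided exact permutation p was 0.00794, the smallest that 5 against 5 mice allow. In this comparison limma called 13.7% of all genes, 7.69% higher and 6.03% lower, at an adjusted p below 0.05. Among the 24011 genes ordered by the size of the fall, Cyp8b1 stood in position 4 and Cyp7a1 in position 9, against a median change of -0.037 over all genes. KO_chow replicate 5 set part of the size for Cyp7a1: without it the log2 change was -1.491 (limma adjusted p = 0.000461), whereas that of Cyp8b1 was -2.557 (limma adjusted p = 6e-07). Without KO_chow replicates 2 and 5 the changes were -1.438 for Cyp7a1 (limma adjusted p = 0.00316) and -2.248 for Cyp8b1 (limma adjusted p = 6.89e-07). The variance shared by the groups is smaller than that of KO_chow for both genes. In a fit to the WT_chow and KO_chow arrays alone, the limma adjusted p was 0.026 for Cyp7a1 and 0.000192 for Cyp8b1.

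UDCA in wild-type mice went with no change of either gene that passed the test. The log2 change of Cyp7a1 was -0.23 (SE 0.4, 95% interval -1.06 to 0.6) and that of Cyp8b1 was -0.15 (SE 0.26, 95% interval -0.69 to 0.38), both with a limma adjusted p of 0.991. The exact permutation p was 0.307 for Cyp7a1 and 0.329 for Cyp8b1 with 6 against 5 mice. These intervals leave room for a fall of up to 1.06 log2 units in Cyp7a1. Limma called 0% of all genes in this comparison, and 1338 genes had an unadjusted p below 0.05. WT_UDCA replicate 3 had the lowest Cyp7a1 level of the wild-type mice, 9.72, and without it the change of Cyp7a1 was -0.093.

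UDCA in the knockout mice went with higher levels of both genes. Cyp7a1 was 2.74-fold higher in KO_UDCA than in KO_chow (log2 change 1.45, SE 0.4, limma adjusted p = 0.0199, exact permutation p = 0.0173), with overlap between the groups. Cyp8b1 was 3.61-fold higher (log2 change 1.85, SE 0.26, limma adjusted p = 5.03e-05), and all 6 KO_UDCA mice lay above all 5 KO_chow mice (exact permutation p = 0.00433, the smallest that 6 against 5 mice allow). Limma called 11.2% of all genes in this comparison, 5.03% higher and 6.22% lower, and the median change over all genes was 0.033. By the size of the rise Cyp8b1 stood in position 4 and Cyp7a1 in position 12 of 24011 genes. The comparison shares the KO_chow mice with that of KO_chow and WT_chow, so low KO_chow values enter both. The call of Cyp7a1 depended on the lowest mice and on the variance used. Without KO_chow replicate 5 its log2 change was 0.863 (limma adjusted p = 0.0332), and without replicates 2 and 5 it was 0.81 and did not pass (limma adjusted p = 0.126). In a fit to the KO_UDCA and KO_chow arrays alone it did not pass either (limma adjusted p = 0.0955). The rise of Cyp8b1 passed in the same settings, at 1.595 without replicate 5 (limma adjusted p = 0.000145), 1.286 without replicates 2 and 5 (limma adjusted p = 0.000582) and with a limma adjusted p of 0.00438 in the fit to the groups compared.

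The treated knockout mice were then set against both wild-type groups. Cyp8b1 was 1.95-fold lower in KO_UDCA than in WT_chow (log2 change -0.96, SE 0.26, 95% interval -1.5 to -0.43). All 6 KO_UDCA mice lay below all 5 WT_chow mice (exact permutation p = 0.00433). Against WT_UDCA it was 1.75-fold lower (log2 change -0.81, SE 0.25, 95% interval -1.32 to -0.3, exact permutation p = 0.00433), and 5 of the 6 KO_UDCA mice lay below every WT_UDCA mouse. Neither difference passed after adjustment over all genes, with limma adjusted p of 0.396 and 0.694. Limma called 0.025% of all genes against WT_chow and 0.0167% against WT_UDCA, which are 6 and 4 genes. Without KO_chow replicates 2 and 5, which enter this comparison only through the shared variance, the difference of Cyp8b1 from WT_chow passed (limma adjusted p = 0.0481). This pair has the lowest Cyp8b1 levels of its group, and no label sets it apart.

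For Cyp7a1 the treated knockout mice overlapped both wild-type groups. Of the 6 KO_UDCA mice, 4 lay below every WT_chow mouse and 3 below every WT_UDCA mouse. The log2 change was -0.63 against WT_chow (SE 0.4, 95% interval -1.46 to 0.2, limma adjusted p = 0.931, exact permutation p = 0.0433). Against WT_UDCA it was -0.4 (SE 0.38, 95% interval -1.19 to 0.39, limma adjusted p = 0.991, exact permutation p = 0.113). The intervals hold both no difference and a fall of more than 1 log2 unit. The exact permutation p-values are those of single tests, 10 in all over both genes and 5 comparisons, and are not adjusted. Adjusted over these 10 tests, the exact permutation p of KO_UDCA vs WT_chow was 0.0618 for Cyp7a1 and 0.0144 for Cyp8b1. That of KO_UDCA vs WT_UDCA was 0.141 for Cyp7a1 and 0.0144 for Cyp8b1.

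The effect of UDCA differed between genotypes for Cyp8b1. The interaction, the log2 change with UDCA in knockout mice minus that in wild-type mice, was 2.01 (SE 0.37, 95% interval 1.25 to 2.76, limma adjusted p = 0.00388). For Cyp7a1 it was 1.68 (SE 0.57, 95% interval 0.51 to 2.85, unadjusted p = 0.00678) and did not pass after adjustment (limma adjusted p = 0.118). Limma called 2.67% of all genes in the interaction. The estimate of Cyp7a1 leans on KO_chow replicate 5, without which it was 1.094 (limma adjusted p = 0.106). That of Cyp8b1 was 1.749 without this mouse (limma adjusted p = 0.00624) and ran from 1.749 to 2.253 with 1 mouse left out. Without KO_chow replicate 4, the highest mouse of its group, the interaction of Cyp7a1 was 1.96 and passed (limma adjusted p = 0.0401).

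**Figure D2:**
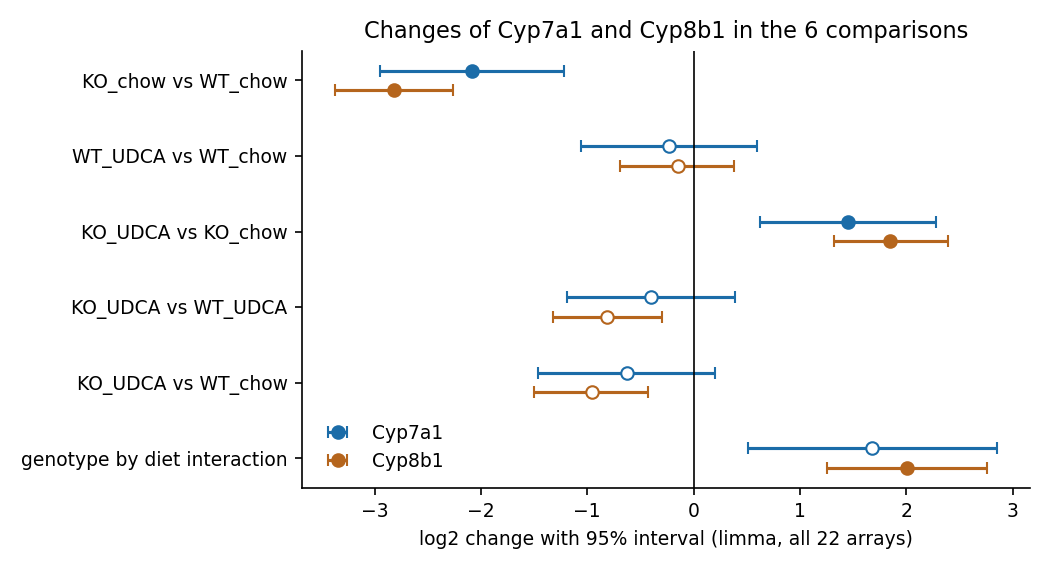
Log2 change of Cyp7a1 and Cyp8b1 in the 5 comparisons of groups and in the genotype by diet interaction, with the 95% interval from limma on all 22 arrays. Filled points passed at an adjusted p below 0.05 over all genes. Both genes passed in KO_chow vs WT_chow and in KO_UDCA vs KO_chow, and Cyp8b1 alone passed in the interaction.

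Whether the 2 genes changed by unequal amounts was tested on the difference of their log2 values within each array. The change of Cyp8b1 minus that of Cyp7a1 was -0.73 in KO_chow vs WT_chow (exact permutation p = 0.135). It was 0.08 in WT_UDCA vs WT_chow (exact permutation p = 0.71) and 0.40 in KO_UDCA vs KO_chow (exact permutation p = 0.355). It was -0.41 in KO_UDCA vs WT_UDCA (exact permutation p = 0.0779) and -0.33 in KO_UDCA vs WT_chow (exact permutation p = 0.126). None of the 5 passed, and the lowest p adjusted over the 5 comparisons was 0.225. A larger fall of Cyp8b1 than of Cyp7a1 on chow was not detectable with this number of mice. KO_chow replicate 5 stood against the other 4 KO_chow mice here, with a difference of -0.39 within its array against -1.33 to -2.82. Its Cyp7a1 lay further below that of the other 4 mice than its Cyp8b1 did. Without KO_chow replicate 5 the difference of changes in KO_chow vs WT_chow was -1.066 (exact permutation p adjusted over the 5 comparisons = 0.13).

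Levels of the 2 genes were set against each other mouse by mouse. KO_chow replicate 4 was the highest of its group in both genes and replicate 5 the lowest in both. Replicate 2 was low in Cyp8b1, at 6.18, and in the middle of its group in Cyp7a1, at 8.99. Over all 22 arrays Pearson r was 0.871, a value that the low KO_chow group largely sets. Deviations from the group means had an r of 0.706, which was 0.5 without KO_chow replicate 5 and 0.542 without all KO_chow mice. Within the 6 KO_UDCA mice r was 0.724 (exact permutation p = 0.075, adjusted over both groups tested 0.15) and Spearman's rho 0.771 (exact permutation p = 0.103), with an r of 0.424 once the 2 mice farthest from the median of Cyp7a1 were left out. Within the 6 WT_UDCA mice r was 0.423 (exact permutation p = 0.469, adjusted 0.469) and rho 0.200 (exact permutation p = 0.714), with an r of -0.791 without the 2 farthest. A relation within KO_UDCA or WT_UDCA was not detectable at this number of mice. WT_chow and KO_chow, with 5 mice each, were too small for this test and were not tested.

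**Figure D3:**
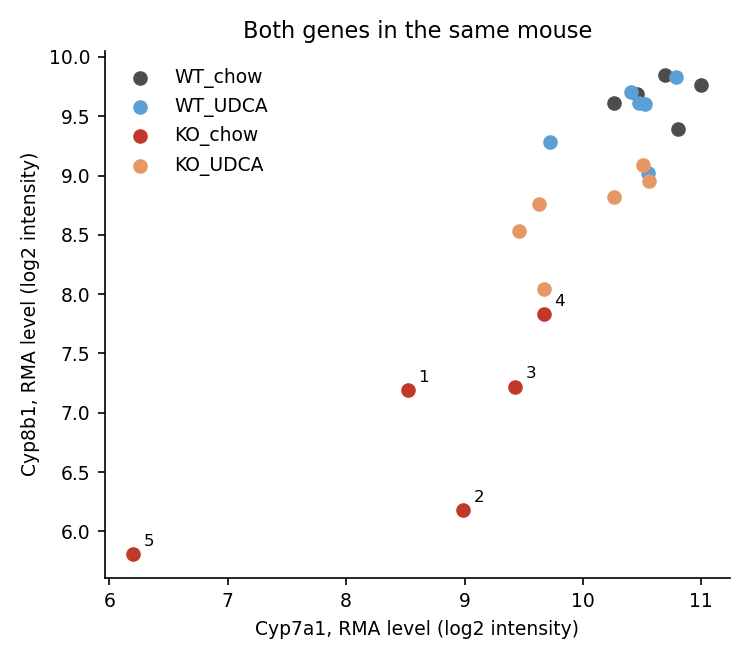
Level of Cyp8b1 against that of Cyp7a1 (RMA, log2 intensity) in the same mouse, with 1 point per mouse coloured by group. The KO_chow mice carry their replicate numbers: replicate 5 is lowest in both genes, and replicate 2 is low in Cyp8b1 at 6.18 with a Cyp7a1 level of 8.99.

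The other enzymes of bile acid synthesis and conjugation mostly moved in the same direction by less. Of 15 measured, 9 fell and 1 rose in KO_chow vs WT_chow, where 6.03% of all genes fell and 7.69% rose, with a median log2 change of -0.39 against -0.037 over all genes. Hsd3b7, which acts after Cyp7a1 in the classic pathway, fell 1.61-fold (log2 change -0.69, SE 0.14, limma adjusted p = 0.00236). Akr1d1, the steroid 5-beta-reductase, fell 1.56-fold (limma adjusted p = 0.00606), and Cyp7b1, the oxysterol hydroxylase of the alternative pathway, fell 1.49-fold (limma adjusted p = 0.00517). Cyp27a1, the sterol 27-hydroxylase that starts the alternative pathway, had a log2 change of -0.39 and did not pass (limma adjusted p = 0.0515). The exception in direction was Ch25h, which makes 25-hydroxycholesterol and is induced in activated macrophages: it rose 3.08-fold (log2 change 1.62, SE 0.33, limma adjusted p = 0.00176). Its level was low, at 3.92 ± 0.18 log2 units in WT_chow (SD, n = 5) and 5.54 ± 1.2 in KO_chow (n = 5). The rise was lost on titles 1 to 15 alone (limma adjusted p = 0.0622). None of the 15 had a fall as large as those of Cyp7a1 and Cyp8b1, since the lowest change was -0.69. Without KO_chow replicates 2 and 5 the list gave 1 call, Ch25h, at a log2 change of 1.01, and the limma adjusted p was 0.0542 for Hsd3b7, up to 0.123 for Akr1d1 and up to 0.127 for Cyp7b1 across the alternatives that ended their calls.

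With UDCA in the knockout mice 3 of these 15 enzymes rose and 1 fell, where 5.03% of all genes rose and 6.22% fell, with a median log2 change of 0.27. Ch25h fell 3.1-fold (log2 change -1.63, SE 0.32, limma adjusted p = 0.0015), to 3.91 ± 0.06 log2 units (SD, n = 6) against 3.92 ± 0.18 in WT_chow (n = 5), and the change was -1.02 without KO_chow replicates 2 and 5. Hsd3b7 rose 1.38-fold (limma adjusted p = 0.033), a call lost in 9 of 20 alternatives, among them those without KO_chow replicate 2 or 5 and without KO_UDCA replicate 3, 4, 5 or 6 (limma adjusted p between 0.0545 and 0.39). The count of 4 was 1 without KO_chow replicate 2, KO_chow replicate 5 or KO_UDCA replicate 5, and 2 without KO_UDCA replicate 3 or 6. In WT_UDCA vs WT_chow limma called 0 of the 15, as of all genes.

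Receptors, coreceptors and transcription factors that take part in the control of Cyp7a1 or Cyp8b1 had changes between -1.19 and 0.33 in KO_chow vs WT_chow. Of 19 measured, 6 fell and 0 rose, where 6.03% of all genes fell, with a median log2 change of -0.25. Klb, which encodes beta-klotho, fell 1.58-fold (log2 change -0.66, SE 0.14, limma adjusted p = 0.00267), from 9.11 ± 0.06 log2 units in WT_chow (SD, n = 5) to 8.45 ± 0.45 in KO_chow (n = 5). Its partner Fgfr4 had a log2 change of 0 (SE 0.08, limma adjusted p = 0.988), with a sign that turned in 4 of 19 alternatives. Nr1i3, the xenobiotic receptor CAR, fell 2.28-fold (limma adjusted p = 0.00278), and the call was lost without KO_chow replicates 2 and 5 (limma adjusted p = 0.0792). Nr1h4, which encodes FXR, fell 1.4-fold (log2 change -0.49, SE 0.14, limma adjusted p = 0.0239), a call lost in 7 of 19 alternatives, among them those without KO_chow replicate 2 or 5 and without WT_chow replicate 1 or 5 (limma adjusted p between 0.0581 and 0.312). Hnf4a, a factor whose motif letters stand in the Cyp8b1 promoter, had a log2 change of -0.04 (SE 0.11, limma adjusted p = 0.88), and its sign turned in 5 of 19 alternatives, quantile normalization among them. Nr0b2, which encodes SHP, had a log2 change of 0.33 (SE 0.23, limma adjusted p = 0.398). The count of 6 was 2 when WT_chow replicate 5 or KO_chow replicate 2 or 5 was left out, and 1 without KO_chow replicates 2 and 5, in which fit the change of Klb was -0.402 (limma adjusted p = 0.043).

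With UDCA in the knockout mice 8 of the 19 rose and 1 fell, where 5.03% of all genes rose and 6.22% fell, with a median log2 change of 0.31. Klb rose 1.59-fold (log2 change 0.67, SE 0.14, limma adjusted p = 0.00216) and reached 9.12 ± 0.06 log2 units (SD, n = 6), and all 6 KO_UDCA mice lay above all 5 KO_chow mice. Its change was 0.412 without KO_chow replicates 2 and 5 (limma adjusted p = 0.0438). Nr1i3 rose 1.87-fold (limma adjusted p = 0.0185), a call lost without KO_chow replicate 2 or 5, in fits to the groups compared and to titles 1 to 15, and without both replicates (limma adjusted p between 0.063 and 0.323). Nr1h4 rose 1.35-fold (limma adjusted p = 0.0447), a call lost in 12 of 20 alternatives. Those that left out a single mouse and ended it left out KO_chow replicate 2, 3 or 5 or KO_UDCA replicate 1, 2, 3, 5 or 6. Nr0b2 had a log2 change of -0.38 (limma adjusted p = 0.299) and Hnf4a of 0.14 (limma adjusted p = 0.474). The count of 9 was 1 without KO_chow replicate 5, 2 without KO_chow replicate 2, 5 without KO_chow replicate 3 or KO_UDCA replicate 2 or 3, and 4 without KO_UDCA replicate 1 or 6.

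Of 12 genes that FXR is known to raise, 2 rose and 1 fell in KO_chow vs WT_chow, counts not far from the 7.69% of all genes that rose and the 6.03% that fell, with a median log2 change of 0.04. Slc51b, which encodes a subunit of the bile acid exporter at the sinusoidal membrane, rose 2.34-fold (log2 change 1.22, SE 0.26, limma adjusted p = 0.00216). It measured 4.61 ± 0.22 log2 units in WT_chow (SD, n = 5) and 5.83 ± 0.37 in KO_chow (n = 5). Pltp, the phospholipid transfer protein, fell 1.75-fold (limma adjusted p = 0.00333). Both calls were lost without KO_chow replicates 2 and 5 (log2 change 0.989 and limma adjusted p = 0.0575 for Slc51b, and -0.713 and 0.0554 for Pltp). Abcb11, the bile salt export pump, had a log2 change of -0.19 (limma adjusted p = 0.311). With UDCA in the knockout mice 0 of the 12 rose and 2 fell, where 6.22% of all genes fell. Slc51b fell 3.77-fold (log2 change -1.91, SE 0.24, limma adjusted p = 1.9e-05), to 3.92 ± 0.63 log2 units (n = 6). At these low levels the scale matters, and with 16 added before the log the change was -1.209. In wild-type mice its log2 change with UDCA was -0.9 (SE 0.24, unadjusted p = 0.0013, limma adjusted p = 0.647).

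LXR, the oxysterol receptor, raises mouse Cyp7a1 as well as the transporters that send cholesterol into bile. Of 8 LXR targets measured, 4 fell and 0 rose in KO_chow vs WT_chow, where 6.03% of all genes fell, with a median log2 change of -0.3. With UDCA in the knockout mice 3 rose and 0 fell, where 5.03% of all genes rose, with a median of 0.36. Abcg8, a subunit of the sterol transporter of the canalicular membrane, fell 1.71-fold (log2 change -0.78, SE 0.15, limma adjusted p = 0.00134). With UDCA it rose 1.81-fold in the knockout mice (log2 change 0.86, SE 0.15, limma adjusted p = 0.000503), from 8.26 ± 0.46 log2 units (SD, n = 5) to 9.12 ± 0.12 (n = 6) against 9.04 ± 0.11 in WT_chow (n = 5). Its partner Abcg5 fell 1.42-fold (limma adjusted p = 0.0111) and rose 1.52-fold (limma adjusted p = 0.00284), calls that were lost without KO_chow replicates 2 and 5 (highest limma adjusted p = 0.239). In that setting the changes of Abcg8 were -0.494 and 0.573. The count of 4 was 2 without KO_chow replicate 2, 3 or 5 or WT_chow replicate 4, and the count of 3 was 5 without KO_chow replicate 4. Over the alternatives other than leaving out 1 mouse, the lowest value of either count was 1.

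Cholesterol itself is the substrate of Cyp7a1. Of 8 genes of its synthesis and of the control of that synthesis that were measured, limma called 0 in KO_chow vs WT_chow, against 13.7% of all genes, with changes between -0.35 and 0.3. With UDCA 1 of the 8 fell in the knockout mice, against 6.22% of all genes, a call lost without KO_chow replicate 2, KO_chow replicate 5 or KO_UDCA replicate 1. Targets of PPAR-alpha, the fatty acid receptor that also acts on Cyp8b1, numbered 11 measured. Of these 5 fell and 1 rose on chow, where 6.03% of all genes fell and 7.69% rose, with a median log2 change of -0.5. With UDCA in the knockout mice 4 rose and 0 fell, where 5.03% of all genes rose, with a median of 0.43. The pantetheinase gene Vnn1 fell 1.99-fold (limma adjusted p = 0.0119) and rose 2.03-fold (limma adjusted p = 0.0092), and both calls were lost without KO_chow replicates 2 and 5 (highest limma adjusted p = 0.249). The count of 6 was 3 without WT_chow replicate 5. Its lowest value was 0 over the alternatives other than leaving out 1 mouse. The count of 4 was 2 when KO_UDCA replicate 1 or 2 or KO_chow replicate 2 or 5 was left out, and 7 without KO_chow replicate 4. Over the alternatives other than leaving out 1 mouse, its lowest value was 0 as well.

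**Figure D4:**
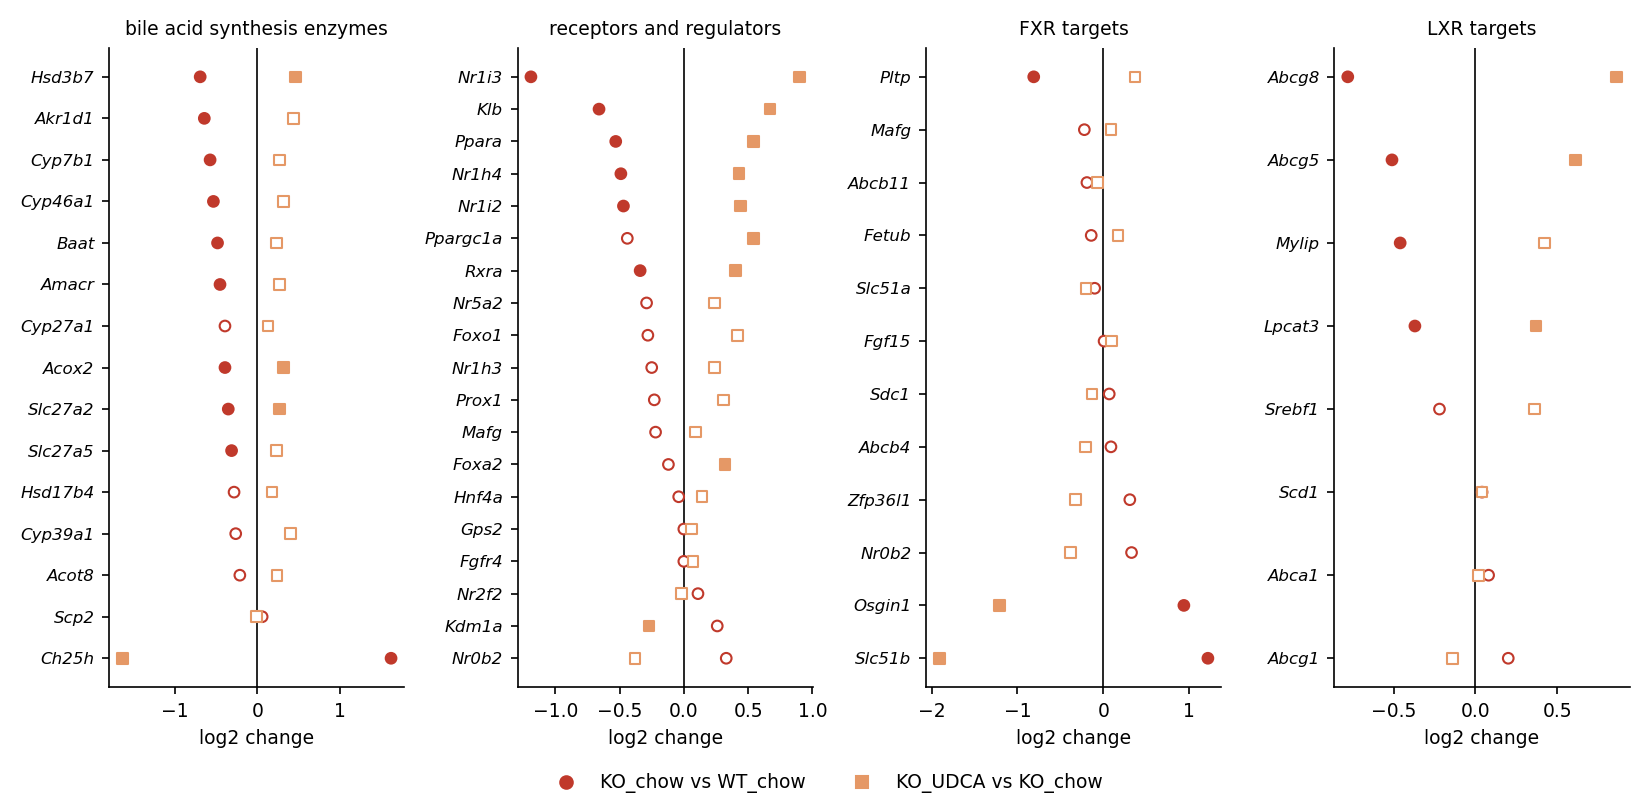
Log2 changes of the other bile acid synthesis enzymes, receptors and regulators, FXR targets and LXR targets, with circles for KO_chow vs WT_chow and squares for KO_UDCA vs KO_chow. Filled symbols passed at a limma adjusted p below 0.05, and the panels have different horizontal scales. Most genes that lay below 0 on chow lay above 0 with UDCA, in 2 comparisons that share the KO_chow mice, while Ch25h and Slc51b showed the opposite signs.

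Of 14 cytokines and stress-induced factors measured, 7 rose and 0 fell in KO_chow vs WT_chow, where 7.69% of all genes rose, with a median log2 change of 0.7. With UDCA in the knockout mice 0 rose and 8 fell, where 6.22% of all genes fell, with a median of -0.58. Ccl2, the chemokine that attracts monocytes, rose 4.74-fold (log2 change 2.25, SE 0.43, limma adjusted p = 0.00101). It fell 4.57-fold with UDCA (log2 change -2.19, SE 0.41, limma adjusted p = 0.00112), from 6.64 ± 1.51 log2 units in KO_chow (SD, n = 5) to 4.45 ± 0.11 in KO_UDCA (n = 6) against 4.39 ± 0.27 in WT_chow (n = 5). The stress-induced factor Atf3 rose 2.43-fold (limma adjusted p = 0.00123) and fell 2.68-fold (limma adjusted p = 0.000408), although the rise was lost on titles 1 to 15 alone (limma adjusted p = 0.0863). The count of 7 was 11 without KO_chow replicate 4, and the count of 8 was 5 without KO_chow replicate 2, 3 or 5. Without KO_chow replicates 2 and 5 both counts were 2, and the changes of Ccl2 were 1.314 and -1.261.

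Clock genes and their output factors were also measured, since Cyp7a1 is known to follow a daily rhythm. Of 18, 4 fell and 0 rose in KO_chow vs WT_chow, where 6.03% of all genes fell, with a median log2 change of -0.23. In the knockout mice 1 of the 18 rose with UDCA, a share near the 5.03% of all genes. Dbp, an output factor that acts on Cyp7a1, had a log2 change of -0.7 on chow (SE 0.28, limma adjusted p = 0.111, and 0.0279 without WT_chow replicate 3). Its relative Hlf fell 1.66-fold (limma adjusted p = 0.018) and rose 1.67-fold (limma adjusted p = 0.0158), both lost without KO_chow replicate 5 (limma adjusted p at most 0.254 over the alternatives), and the fall also without KO_chow replicate 2 or WT_chow replicate 5. The count of 4 was 2 without KO_chow replicate 2 and 1 without KO_chow replicate 5 or WT_chow replicate 5. Its lowest value was 0 over the alternatives other than leaving out 1 mouse. The count of 1 was 0 without KO_chow replicate 5, 2 without KO_chow replicate 1 or KO_UDCA replicate 4, and 3 without KO_UDCA replicate 5.

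Markers of other liver cells moved with the groups in which Cyp7a1 and Cyp8b1 were low. In KO_chow vs WT_chow 8 of 8 cholangiocyte markers, 8 of 9 macrophage markers and 8 of 10 mesenchymal markers rose, where 7.69% of all genes rose, and the same numbers fell with UDCA in the knockout mice, where 6.22% of all genes fell. The summed intensity of the cholangiocyte markers ran from 257 to 286 in WT_chow, 240 to 292 in WT_UDCA, 644 to 1274 in KO_chow and 282 to 420 in KO_UDCA. That of the macrophage markers ran from 562 to 643, 574 to 657, 1224 to 5443 and 604 to 761 in the same order, and that of the mesenchymal markers from 1613 to 1683, 1433 to 1727, 2803 to 3643 and 1553 to 2183. No marker was listed at 0. The group mean of Krt19, Krt7, Tspan8 and Cldn7 was below the median of all genes in WT_chow, WT_UDCA and KO_UDCA, and in KO_chow this held for Cldn7 alone. Among 12 hepatocyte markers 1 rose and 1 fell on chow, with a median log2 change of 0, and their summed intensity ran from 48015 to 50810 in WT_chow and from 49465 to 50864 in KO_chow. Of 6 endothelial and 6 lymphocyte markers, 1 of each rose on chow, and these counts and that of the hepatocyte markers were near the 13.7% of all genes called.

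Within KO_chow the 2 mice with the highest macrophage sums were the 2 with the lowest Cyp8b1. Replicates 2 and 5 had macrophage sums of 5443 and 4789 and Cyp8b1 levels of 6.18 and 5.81, so the order between them did not hold. Replicate 3 had a sum of 2813 and a level of 7.22, and replicates 1 and 4 had sums of 1224 and 1320 and levels of 7.19 and 7.83, so replicate 3 was not lower in Cyp8b1 than replicate 1. Cyp7a1 measured 8.99 in replicate 2 and 6.2 in replicate 5, with 8.52 in replicate 1 between them. The cholangiocyte sums were 822, 1274, 644, 723 and 996 and the mesenchymal sums 3108, 3598, 2803, 3263 and 3643 in replicates 1 to 5. The hepatocyte sums, which weigh the brightest markers most, stayed between 49465 and 50864 in these 5 mice. The part of these cells in the levels of Cyp7a1 and Cyp8b1 was not tested.

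Genes whose pattern was most like that of each gene were ranked by Pearson r of log2 levels over the 22 arrays, among 2928 genes with a mean level above the median of all genes and a range of at least 1 log2 unit. The arrays share their groups, so r reflects the low KO_chow group above all, and it is given as a description. For Cyp8b1 the highest r were those of Shmt1, the cytosolic serine hydroxymethyltransferase (0.934), Slc10a1, the sodium-dependent bile acid uptake transporter (0.931), Slc47a1, Csrp3, Car5a, Sepsecs, Vwa8 and Pctp (0.927 to 0.91). Slc10a1 stayed at 0.843 without KO_chow replicates 2 and 5 and at 0.84 for deviations from the group means. The most opposite patterns were those of Frzb (-0.963), Col6a3, Robo2, Alcam and Nid1 (-0.954), among them a collagen chain and a basement membrane protein. For deviations from group means the highest r were those of Csrp3 (0.874), Pdk1, Nxpe2, Nr1h4 (0.841) and Slc10a1.

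For Cyp7a1 the highest r were lower, from 0.897 for the predicted gene Gm17753 through D130020L05Rik, Fam214a, Ido2, Syt1, Stard5 and Tbc1d30 to 0.878 for Bhmt2. Without KO_chow replicates 2 and 5 that of Gm17753 was 0.667 and that of Syt1 0.758. The most opposite were Gm7334 (-0.9), 1700017B05Rik, Rbpms, Rnf11 and Hgf, the hepatocyte growth factor gene (-0.87). For deviations from group means the highest r were those of Sntg2 (0.837), an immunoglobulin kappa variable segment, Gm17753, Syt1 and Lrig3 (0.772). The r of levels, another measure, was 0.408 for Sntg2 and 0.089 for the immunoglobulin segment without KO_chow replicates 2 and 5. In these orders Cyp8b1 stood in position 12 of 2928 for Cyp7a1, and Cyp7a1 in position 63 for Cyp8b1. Among the receptors and regulators, Nr1h3, which encodes LXR-alpha, had the highest r with Cyp7a1, 0.855, and an r of 0.708 with Cyp8b1. The highest r with Cyp8b1 was that of Nr1i3, 0.876, against 0.78 with Cyp7a1. Nr1h4, Ppara and Klb had r between 0.778 and 0.81 with either gene. Hnf4a had -0.025 with Cyp7a1 and 0.127 with Cyp8b1, and the lowest were those of Kdm1a, -0.617 and -0.749.

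**Figure D5:**
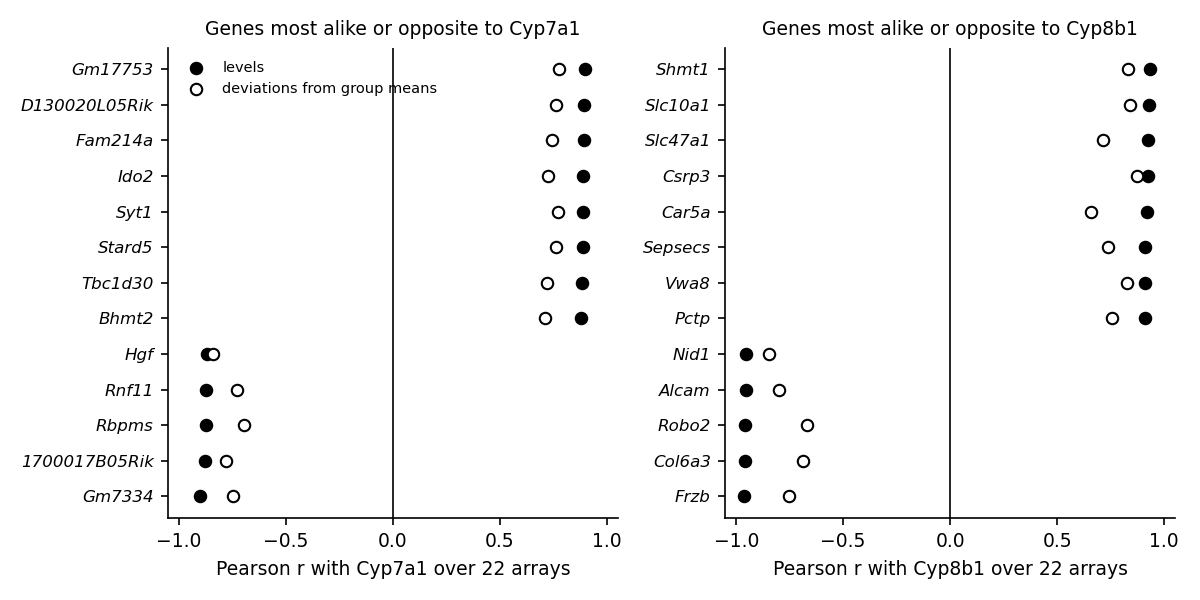
Pearson r with Cyp7a1 (left) and Cyp8b1 (right) over the 22 arrays for the 8 genes with the highest and the 5 with the lowest r. Filled points are r of log2 levels and open points r of deviations from group means. The r of levels reach 0.897 for Cyp7a1 and 0.934 for Cyp8b1, and most open points lie nearer to 0.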

How the data were processed

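Liver RNA of 22 mice was measured on 1 array each. The authors deposited unlogged intensity, made by RMA and a probe-level model per the labels (RMA is named without a version in the submitters' processing notes, and no genome build is given in the sources used here). Of 24973 rows, 24015 had 1 gene symbol, 0 had several and 958 had none, which entered no result; 4 symbols on several rows were reduced to the brightest row, leaving 24011 genes. Values were taken to log2 with no pseudocount and no filter. Version 3.58.1 of limma (R 4.3.3) fitted 1 mean for each group over the 22 arrays, two-sided, with Benjamini-Hochberg adjustment over all genes; changed means an adjusted p below 0.05. Exact permutation tests, two-sided, used SciPy 1.17.1 in Python 3.11.15. Code was tested on simulated data. The number of arrays limits the precision. Replicates were numbered in accession order. The members and the gene lists were chosen with earlier results of these data known; 154 of 167 list genes were measured, and the text names genes of these lists, Cyp2c70 and those most alike or opposite in pattern. The list genes named were picked after their values were seen. Alternatives covered scaling, a pseudocount of 16, dim genes and the arrays in the fit. They also covered a variance per group, the title numbering as a block and each mouse left out. The fit to titles 1 to 15 and the correlations without KO_chow replicates 2 and 5 were chosen after seeing the data. No label sets this pair of mice apart from their group. Every fit without the pair therefore also rests on a choice that only these data could give.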

Additional observations from a re-analysis of the deposited data

Results flagged for a closer look

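Cyp7a1 in WT_UDCA replicate 3 measured 9.72 log2 units and stood apart from the other 5 mice of its group, whose gap to it was most of the range of the group. This test marks about 1 group in 20 by chance, and 12 groups were looked at.

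Cyp8b1 changed with UDCA by unequal amounts in the 2 genotypes, with an interaction of 2.01 log2 units (limma adjusted p = 0.00388) that passed in 29 of 30 alternatives. Among the named list genes Abcg8 had an interaction of 0.78 (limma adjusted p = 0.0442), a call lost in 21 of 30 alternatives. Ccl2 had an interaction of -2.22 (limma adjusted p = 0.042), a call lost in 20 of 30 alternatives.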

How the results depend on the processing

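Of 322 alternative values for Cyp7a1, Cyp8b1 and the difference of their changes, 314 kept their direction and their side of the threshold. Most of the 322 belong to results that did not pass in the main fit, many of them far from the threshold. The count therefore says little about how stable the calls were. The rise of Cyp7a1 in KO_UDCA vs KO_chow did not pass in the fit to the groups compared (1.452), without KO_chow replicates 2 and 5 (0.81) or on titles 1 to 15 (0.815). Cyp8b1 in KO_UDCA vs WT_chow passed without KO_chow replicates 2 and 5 (-0.962), and its interaction did not pass on titles 1 to 15 (1.62, limma adjusted p = 0.153). The interaction of Cyp7a1 ran from 1.094 to 1.96 over the fits without 1 mouse and passed in 1 of them. The difference of changes in WT_UDCA vs WT_chow ran from -0.030 to 0.203 over such fits and was -0.030 without WT_chow replicate 2 and -0.015 without WT_UDCA replicate 3. Fgfr4 in KO_chow vs WT_chow was 0.066 on titles 1 to 15 and between -0.034 and 0.034 with 1 mouse left out. Hnf4a was 0.002 after quantile normalization, 0.052 on titles 1 to 15 and between -0.104 and 0.01 with 1 mouse left out. Abcb11 in KO_UDCA vs KO_chow was between -0.157 and 0.013 with 1 mouse left out. The cause of these turns was not tested.

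With 1 mouse left out, Cyp7a1 ran from -2.357 to -1.491 in KO_chow vs WT_chow and from 0.863 to 1.729 in KO_UDCA vs KO_chow, and Cyp8b1 from -3.061 to -2.557 and from 1.595 to 2.1. With the numbering run as a block, Cyp7a1 was -2.161 and 1.439 and Cyp8b1 was -2.86 and 1.846 in these comparisons.

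Genes called in KO_chow vs WT_chow numbered 3295, and 2008 in the fit to the groups compared, 1089 without KO_chow replicates 2 and 5 and 1055 on titles 1 to 15. In KO_UDCA vs KO_chow they numbered 2701, and 1454, 673 and 866 in these settings, 1652 without KO_chow replicate 2 and 1632 without KO_chow replicate 5. In the interaction they numbered 642, and between 301 and 1219 with 1 mouse left out. They were 207 without KO_chow replicates 2 and 5 and 38 on titles 1 to 15. Counts without KO_chow replicates 2 and 5 also rest on fewer mice. No paired analysis was possible because the labels carry no replicate number that groups share.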
